A study of Mus musculus with 27 samples.

Results

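The liver X receptors and 8 of their target genes for sterol and phospholipid transport were followed through 27 mouse livers. The members were chosen by name, with earlier results of these data known. They are the receptors Nr1h3 and Nr1h2, the efflux pumps Abca1 and Abcg1, the biliary sterol transporter genes Abcg5 and Abcg8, then Mylip, Lpcat3, Pltp and Abca3. These are 10 of the 17655 genes listed in any of the 4 deposited tables, and all 10 were listed in every table and had at least 156 counts in every library. RNA of whole liver was sequenced from 1 mouse per library, with 3 mice in each of 9 groups. All mice carried floxed Kdm5b (Kdm5b fl/fl), which encodes a histone demethylase of H3K4 methylation, and the groups differed by sex, AAV8 vector and stage.

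At the WDA stage, mice received a vector and were fed WDA, a Western diet plus alcohol given in the water, for 8 weeks. These groups were WT females and males (AAV8-control), KO females and males (AAV8-CMV-Cre) and HepKO females (AAV8-TBG-Cre). At the Res stage, mice were fed WDA for 16 weeks, received AAV-control (WT) or AAV-CMV-Cre (KO), and then had 4 weeks of resolution without the diet, again in both sexes. The CMV promoter is active in many cell types and the vector itself directs Cre to the liver, whereas TBG is a hepatocyte promoter. There was no HepKO group in males or after resolution, and the labels gave no ages. Stage, weeks of feeding and the numbered experiment coincided, so their effects cannot be told apart.

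The 2 liver X receptors are nuclear receptors that are switched on by oxysterols and bind DNA together with a retinoid X receptor. Without a ligand they sit on the same genes with corepressors, and with a ligand they raise genes that move cholesterol out of cells, into bile and onto lipoproteins, and genes of fatty acid synthesis. In the liver, Nr1h3 (LXRα) is the receptor known for these responses, and Nr1h2 (LXRβ) is found in most tissues. The study asked what loss of KDM5B does to the liver during and after alcohol feeding, and LXR target genes were one of the groups of interest.

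Levels are CPM, counts scaled to a common library total, after TMM scaling, a scaling that makes most genes comparable between libraries. A difference was called when its adjusted p-value in edgeR's quasi-likelihood test over all tested genes was under 0.05. Library totals ran from 14634602 to 19388251 counts. Kdm5b itself had 16.6 to 31.2 CPM in the 12 WT livers, 7.93 to 24.1 in the 12 KO livers and 8.30 to 17.4 in the 3 HepKO livers. By group, WT and KO livers had 23.5 to 24.9 and 20.6 to 22.0 CPM in WDA males. They had 16.6 to 17.4 and 10.7 to 13.2 CPM in Res females, and 18.8 to 19.7 and 7.93 to 17.2 CPM in Res males. With both sexes of WT mice in 1 fit, edgeR called Kdm5b lower after resolution (-0.46 on the log2 scale, adjusted p = 0.0127), as it called 10.3% of 13152 genes. Its KO effect on the log2 scale was -0.54 in WDA females, -0.16 in WDA males, -0.55 in Res females and -0.59 in Res males (standard errors 0.24, 0.09, 0.13 and 0.25), and was called in none of the 4 comparisons. For HepKO females Kdm5b was at -0.98 against WT and -0.45 against KO (standard errors 0.28 and 0.27), neither called. The WDA KO female mouse 1, at 24.1 CPM, lay within the range of the WDA WT females (21.5 to 31.2 CPM). Hepatocyte markers summed to 75137 to 175201 CPM, with none of the 8 at 0 in any library. Y-linked Ddx3y matched the labelled sex in all 27 livers. The Res KO male mouse 5 nevertheless had 479 CPM of Cyp3a41a, a transcript typical of female liver, against at most 21.2 CPM in the other 11 males. Fewer cells of a type and less RNA per cell cannot be told apart in whole liver.

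In WT female mouse 7 and KO male mouse 17, 9 markers of scar-associated macrophages and monocytes summed to 913 and 639 CPM, against 97.0 to 351 CPM in the other 25 livers. Their 6 cholangiocyte markers summed to 469 and 535 CPM, against 16.6 to 238 CPM elsewhere, and their 9 stellate cell and matrix markers to 758 and 884 CPM, against 232 to 588 CPM elsewhere. A cholangiocyte marker was at 0 in 3 livers, and no marker of the other 2 lists was at 0 in any. Member values without these 2 livers or mouse 5 are given beside the results below where those livers enter and shift the value most.

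Abcg5 and Abcg8 encode the partner subunits of the transporter that secretes cholesterol and plant sterols into bile. The genes lie head to head on mouse chromosome 17 (GRCm38.p6): Abcg5 (gene ID 27409, minus strand, 84658174 to 84683011) and Abcg8 (gene ID 67470, plus strand, 84676302 to 84700333). A second annotated start of Abcg8 lies inside Abcg5, so that 82 exon bases, 3.02% of the exon bases of Abcg5, belong to both. The stretch between the 2 facing starts is shown because these 2 genes had the largest differences between stages. It is the 109 bases of chr17:84683012-84683120 on the plus strand from RefSeq, and capitals mark the letters AGATAA, read on the minus strand, the core of a GATA-factor site.
Abcg5-Abcg8: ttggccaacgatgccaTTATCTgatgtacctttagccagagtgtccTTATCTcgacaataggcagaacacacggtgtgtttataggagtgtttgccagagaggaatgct
This motif was picked after the sequence had been read. It matched at 2 places, and 1.14% of all 32851 RefSeq promoter windows of 300 bases held 2 or more matches on either strand (11.2% held at least 1).

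The LXR element is a direct repeat of the letters AGGTCA with a 4-base spacer, called DR4. It was searched in 300-base windows (250 before to 50 after the start, both strands) of the 9 members with a RefSeq window, 11 windows in all; Abcg1 had none. With at most 2 of the 12 fixed bases changed, 0 of the 11 windows held a DR4, against 3.02% of all windows, and none held AGGTCA on either strand, against 16.3% of all windows. With 3 changes, a limit set after that result, 1 of the 11 windows matched, that of Abca1, against 21.9% of all windows. The match lies at chr4:53159947-53159962 and starts 67 bases before the RefSeq start on which the window is placed. The Abca1 gene (gene ID 11303) spans 53030789 to 53159988 of chromosome 4 on the minus strand, so that the match lies within this span, downstream of its outermost start. The bases of chr4:53159917-53159992 are shown on the minus strand with the match in capitals, and the capitals resemble the DR4 only when read on the opposite strand.
Abca1: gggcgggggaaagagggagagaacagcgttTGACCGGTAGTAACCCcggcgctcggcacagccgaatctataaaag
A match is only a likeness of letters, and windows this short do not reach enhancers.

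On the same build, Nr1h3 spans 91184061 to 91202829 and Pltp (gene ID 18830) 164839518 to 164857708 of chromosome 2, both on the minus strand, and Nr1h2 44549616 to 44553968 of chromosome 7 on the minus strand. Abcg1 (gene ID 11307) lies at 31057694 to 31117984 and Abca3 (gene ID 27410) at 24351921 to 24410204 of chromosome 17, Mylip (gene ID 218203) at 45389742 to 45411940 of chromosome 13 and Lpcat3 (gene ID 14792) at 124663094 to 124704716 of chromosome 6, all on the plus strand. The strand setting of the counting is not known, and 9.75% of the exon bases of Abca3 are shared with the antisense transcript D330041H03Rik.

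The members differed widely in level and in how far that level moved. On the per-length FPKM scale, the median over 27 livers was highest for Abcg5 (77.3), followed by Lpcat3 (72.3), Nr1h3 (46.2), Abcg8 (41.2), Pltp (36.1), Nr1h2 (22.5), Abca1 (21.5), Abca3 (14.6), Mylip (7.66) and Abcg1 (2.26). The ratio of the highest to the lowest of the 9 group means in CPM was 1.30 for Nr1h3 and 1.29 for Nr1h2. Only 15.2% and 13.7% of 13534 genes had smaller ratios than these. The same ratio was 7.71 for Abcg5 and 5.80 for Abcg8, above 95.6% and 93.8% of genes, and between 1.81 and 2.51 for the other 6 members.

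**Figure D1:**
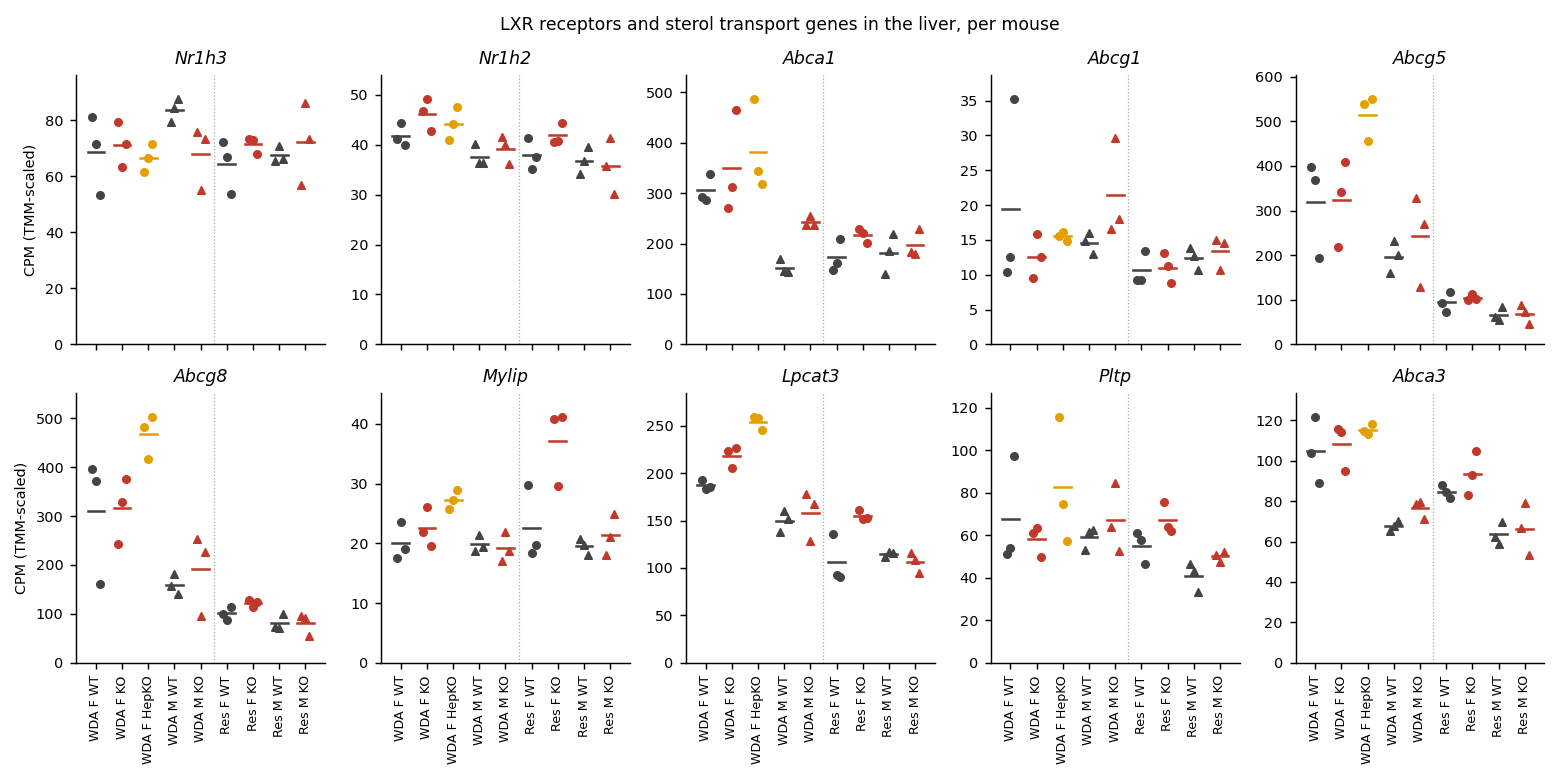
Level of each of the 10 members in CPM (vertical axes, from 0) in every mouse, by group; circles are females, triangles males, short lines group means, and the dotted line separates WDA from Res groups. Abcg5 was at 129 to 550.0 CPM on WDA and at 44.7 to 118 CPM after resolution, while Nr1h3 stayed between 53.2 and 87.6 CPM in all 27 livers.

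The biliary sterol transporter was the member set with the largest difference between stages. Abcg5 was at 397, 367 and 194 CPM in WDA WT females (mice 5, 6 and 7), and at 93.3, 73.2 and 118 CPM in Res WT females. It was at 218, 343 and 409 CPM in WDA KO females, and at 100.2, 113 and 101 CPM in Res KO females. In WT males it was at 159, 231 and 199 CPM on WDA and at 60.2, 55.1 and 84.8 CPM after resolution. In KO males it was at 328, 129 and 269 CPM on WDA (mice 16, 17 and 18) and at 87.4, 72.7 and 44.7 CPM after resolution (mice 5, 6 and 11). All 15 WDA livers were above all 12 Res livers, and the lowest WDA value was that of mouse 17.

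The log2 fold change of Abcg5 from WDA to Res was -1.62 in KO females (standard error 0.20, adjusted p = 0.00161) and -1.54 in WT males (standard error 0.20, adjusted p = 0.0067), both called by edgeR. It was -1.74 in WT females (standard error 0.33, adjusted p = 0.19) and -1.82 in KO males (standard error 0.40, adjusted p = 0.487), neither called. Without mouse 7 the WT female value was -2.0 (adjusted p = 0.047), and without mouse 17 the KO male value was -2.12 (adjusted p = 0.0536).

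Abcg8 followed the same course. It was at 397, 371 and 161 CPM in WDA WT females and at 99.99, 88.2 and 114 CPM after resolution. In KO females it was at 243, 329 and 377 CPM on WDA and at 129, 114 and 125 CPM after resolution. In WT males the values were 157, 181 and 141 CPM on WDA and 73.8, 70.2 and 98.7 CPM after resolution. In KO males they were 252, 95.9 and 226 CPM on WDA and 95.8, 91.9 and 53.8 CPM after resolution, so that mouse 17 stood only just above the highest Res KO male. Its log2 fold changes were -1.37 in KO females (standard error 0.16, adjusted p = 0.00121) and -0.96 in WT males (standard error 0.16, adjusted p = 0.0133), both called. They were -1.61 in WT females (adjusted p = 0.214, and -1.92 with adjusted p = 0.0308 without mouse 7) and -1.24 in KO males (adjusted p = 0.667, and -1.56 with adjusted p = 0.0908 without mouse 17).

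The ratio of Abcg5 to Abcg8 in FPKM, a length-scaled value, had a median of 1.72 over the 15 WDA livers (1.41 to 2.24) and of 1.31 over the 12 Res livers (1.22 to 1.63). Abcg5 thus stood lower relative to Abcg8 after resolution, and the 2 ranges overlapped. Across the 9 group means, Pearson's r of log2 CPM between the 2 genes was 0.986, given as a description because the groups share libraries with every other gene.

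**Figure D2:**
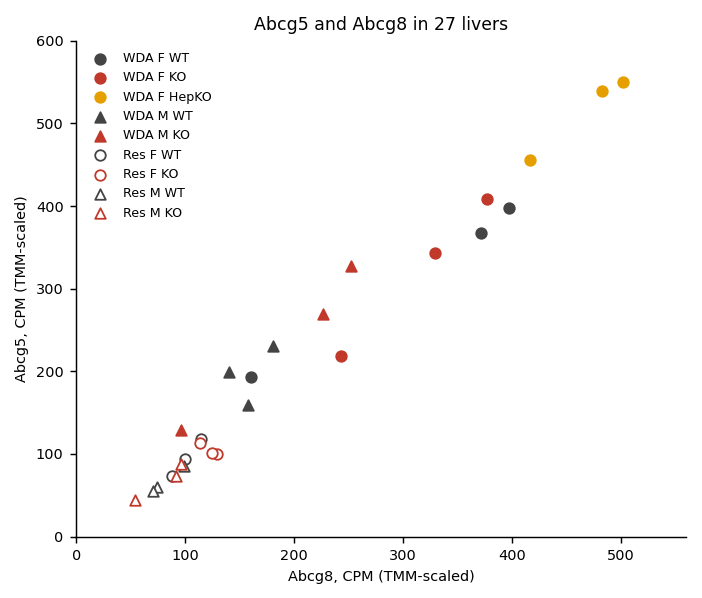
Abcg5 (vertical axis) against Abcg8 (horizontal axis), both in CPM, in 27 livers; filled symbols are WDA, open symbols Res, circles females and triangles males. The 3 HepKO livers lie at the top, at 455 to 550.0 CPM of Abcg5, and the Res livers at the bottom, at 44.7 to 118 CPM.

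Lpcat3, which builds polyunsaturated chains into phospholipids, was lower after resolution in all 4 comparisons, and was called in KO females and WT males. It was at 193, 183 and 186 CPM in WDA WT females and at 136, 92.6 and 89.97 CPM in Res WT females. In KO females it was at 224, 205 and 226 CPM on WDA and at 161, 152 and 153 CPM after resolution. In males on WDA it was at 138 to 160 CPM in WT and at 128 to 178 CPM in KO mice, and after resolution at 112 to 117 CPM and 95.2 to 116 CPM. The groups did not overlap in any of the 4 comparisons. The log2 fold change was -0.49 in KO females (adjusted p = 0.00985) and -0.37 in WT males (adjusted p = 0.0365), both called by edgeR, and -0.82 in WT females (adjusted p = 0.224) and -0.55 in KO males (adjusted p = 0.682, and -0.69 with adjusted p = 0.221 without mouse 17), not called. Of the exon bases of Lpcat3, 10.2% are shared with Emg1 on the other strand, so some reads of 1 gene may have been counted for the other.

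Abca1, which loads cholesterol and phospholipid onto apolipoprotein A-I, was lower after resolution in WT and KO females, and was called in KO females. It was at 293, 287 and 339 CPM in WDA WT females and at 148, 161 and 209.6 CPM after resolution, and at 271, 312 and 466 CPM in WDA KO females and 228, 221 and 200.5 CPM after resolution. The female groups of each vector did not overlap. In WT males the order was different, with 169, 145 and 144 CPM on WDA and 140.3, 186 and 219 CPM after resolution. KO males were at 237, 255 and 238 CPM on WDA and at 182, 179 and 229 CPM after resolution, groups that did not overlap in CPM. The log2 fold change was called in KO females (-0.69, standard error 0.18, adjusted p = 0.0262), and was -0.82 in WT females (adjusted p = 0.226), 0.27 in WT males (adjusted p = 0.302) and -0.29 in KO males (adjusted p = 0.796).

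In WT mice the stage effect on Abca1 was 1.07 higher on the log2 scale in males than in females (standard error 0.26, adjusted p = 0.328 in edgeR's test of the interaction), which was not called. DESeq2 gave the same difference an adjusted p of 0.0132. Of 13152 genes, edgeR called 0.0076% in this interaction, and the share that DESeq2 called is not given here.

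Pltp, the phospholipid transfer protein of plasma, was called lower after resolution in WT males. There it was at 53.3, 61.4 and 62.3 CPM on WDA and at 46.4, 43.0 and 33.5 CPM after resolution. Its log2 fold change was -0.51 (standard error 0.13, adjusted p = 0.0396). In KO females it was at 49.7 to 63.5 CPM on WDA and 62.2 to 75.6 CPM after resolution (log2 fold change 0.21, adjusted p = 0.284). KO males were at 52.6 to 84.7 CPM on WDA and 47.5 to 52.4 CPM after resolution, without overlap. In FPKM these KO male groups overlapped (29.8 to 70.1 and 25.7 to 35.9). WT females were at 51.2 to 97.5 CPM on WDA and 46.3 to 61.1 CPM after resolution. Pltp shares 19.3% of its exon bases with Ctsa on the other strand.

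Mylip, the ubiquitin ligase that marks the LDL receptor for degradation, was called higher after resolution in KO females. It was at 21.9, 26.1 and 19.5 CPM in WDA KO females and at 40.8, 29.6 and 41.1 CPM in Res KO females, with a change of 0.72 on the log2 scale (standard error 0.16, adjusted p = 0.0155). In the other 3 stage comparisons the log2 fold change lay between -0.01 and 0.17 and was not called. Abcg1, which passes cholesterol to HDL, and Abca3, a lipid transporter best known from lung surfactant, were called in no stage comparison. Abca3 ran from 89.1 to 121 CPM in WDA WT females and from 81.8 to 88.0 CPM in Res WT females, groups that did not overlap.

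The receptors themselves showed no called change with stage. Nr1h3 (gene ID 22259) was at 81.3, 71.5 and 53.2 CPM in WDA WT females and at 72.4, 66.8 and 53.8 CPM after resolution. In WT males it was at 79.4, 84.5 and 87.6 CPM on WDA and at 65.7, 70.7 and 66.4 CPM after resolution. These groups did not overlap in CPM (log2 fold change -0.29, standard error 0.08, adjusted p = 0.0545 in edgeR). In FPKM they did, at 46.3 to 49.3 on WDA and 37.8 to 47.0 after resolution. Nr1h2 (gene ID 22260) had log2 fold changes between -0.14 and -0.01 in the 4 stage comparisons, with the interval from -0.42 to 0.15 in WT females and from -0.24 to 0.22 in WT males.

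Read against the background, 0 of 10 members were called between stages in WT females (0 of 12603 genes, 0%), 5 of 10 in KO females (20.4% of 12470 genes), 4 of 10 in WT males (11% of 12408 genes) and 0 of 10 in KO males (0 of 12747 genes, 0%). Groups did not overlap for 5, 5, 5 and 6 of the 10 members, against 20.4%, 40.4%, 36% and 12.9% of all genes. Where 0 were called, 4 members in WT females and 4 in KO males had an unadjusted p under 0.05 in edgeR (13.6% and 6.43% of all genes). DESeq2 called 4 and 1 members there, and limma on FPKM 0 and 0. The shares of all genes that DESeq2 and limma called are not given here. The median log2 fold change of the members was -0.56, -0.20, -0.26 and -0.35, beside medians of all genes between -0.02 and 0.02. With both sexes of WT mice in 1 fit and sex as a covariate, edgeR called Abcg5 (-1.64, adjusted p = 0.00189), Abcg8 (-1.29, adjusted p = 0.00606) and Lpcat3 (-0.59, adjusted p = 0.0128), 3 of 10 members against 10.3% of 13152 genes. Without mouse 7 these were at -1.76, -1.41 and -0.58 and called, and Nr1h3 was called too (-0.28, adjusted p = 0.0346, against -0.19 and 0.292 with it). What share of all genes was called without mouse 7 is not given here. Some calls rested on single mice. In KO females, Abcg5 and Abcg8 alone were called without Res mouse 4 (2 of 10), and Abcg5, Abcg8 and Lpcat3 without Res mouse 2 (3 of 10). In WT males, Abcg5 alone was called without WDA mouse 20 or 21 (1 of 10), and Abcg5 and Abcg8 without WDA mouse 19 or Res mouse 8 (2 of 10). Without mouse 5 in KO males Abcg5 was at -2.03 and Abcg8 at -1.39, not called, and without mice 17 and 5 together they were at -2.34 and -1.71 (adjusted p = 0.0571 and 0.128).

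**Figure D3:**
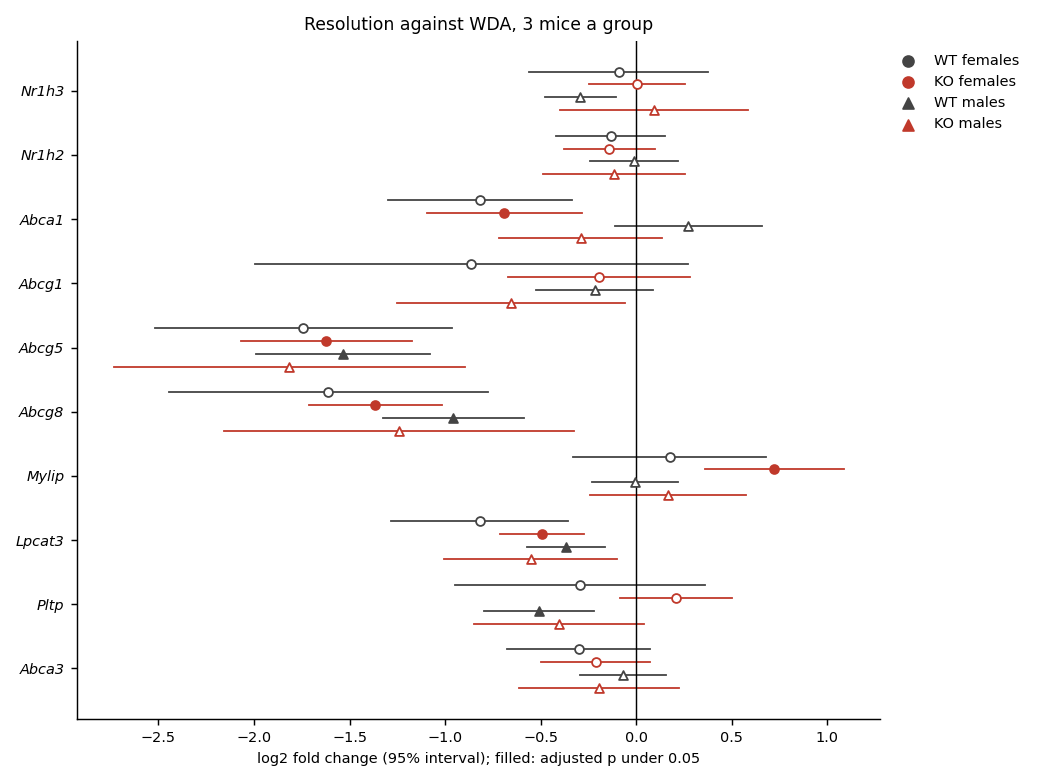
Log2 fold change from WDA to Res (horizontal axis) with its 95% interval for each member in WT and KO females and males, 3 mice a group; filled symbols have an adjusted p-value under 0.05. Abcg5 lies between -1.82 and -1.54 in all 4 comparisons, while both receptors lie between -0.29 and 0.10.

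Other genes of the pathway were read from lists made for this work. The counts below stand beside 20.4% of all genes called in KO females and 11% in WT males. Of 9 lipogenic LXR targets, 3 fell and 1 rose from WDA to Res in KO females. Scd1, the desaturase that makes oleate, fell by 3.65 on the log2 scale (adjusted p = 0.000105 in edgeR), the elongase gene Elovl5 fell by 1.04 (adjusted p = 0.00164) and Acaca, of the first step of fatty acid synthesis, fell by 0.66 (adjusted p = 0.00884), while Scd2 rose by 0.60 (adjusted p = 0.0184). In WT males, Scd1 fell by 2.74 (adjusted p = 0.00329) and Srebf1, the regulator of lipid synthesis that LXR induces, fell by 0.87 (adjusted p = 0.0217), while the fatty acid synthase gene Fasn rose by 0.62 (adjusted p = 0.0104). Srebf1 was at -0.31 in KO females (adjusted p = 0.459).

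Of 8 lipoprotein and bile acid targets tested, 3 fell in KO females and 4 in WT males, and 0 rose in either, beside the same 20.4% and 11% of all genes. Apoc2, the activator of lipoprotein lipase, fell in both (-0.74 and -0.68, adjusted p = 0.00839 and 0.0275), as did Apoa4, an apolipoprotein of triglyceride transport (-2.13 and -1.91, adjusted p = 0.0034 and 0.0133). Lpl, lipoprotein lipase, fell in KO females (-0.93, adjusted p = 0.0103). Apoe and Cyp7a1, the rate-limiting enzyme of bile acid synthesis, fell in WT males (-0.64 and -0.79, adjusted p = 0.0300 and 0.0119). In KO females they were at -0.33 and 0.73 (adjusted p = 0.115 and 0.228).

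Among genes that make or remove oxysterols and related sterols, Cyp27a1, which makes 27-hydroxycholesterol, rose in KO females and WT males (1.07 and 0.48, adjusted p = 0.000609 and 0.0448). In KO females Abcd4, which was on this list but encodes a lysosomal transporter of vitamin B12, rose by 0.75 (adjusted p = 0.0251), while Cyp46a1, which makes 24-hydroxycholesterol, and Cyp3a11 fell (-1.16 and -0.59, adjusted p = 0.00187 and 0.0284). Of 9 genes of RXR partners and the corepressor complex, 1 rose in WT males (Tbl1xr1, a part of the corepressor complex, 0.51, adjusted p = 0.0383). Rxra, the main hepatic partner, was at 0.28 in KO females and -0.15 in WT males (adjusted p = 0.16 and 0.36).

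Of 6 macrophage LXR targets, 1 fell in KO females (Tgm2, a transglutaminase, -0.61, adjusted p = 0.0332) and 0 were called in WT males. Cd5l, made by macrophages, was at 0.24 and -0.22 (adjusted p = 0.322 and 0.676). Of 9 tested other ABCA and ABCG transporters, Abca7 rose (0.56, adjusted p = 0.0433) and Abca8a and Abca8b fell in KO females (-0.89 and -1.08, adjusted p = 0.0195 and 0.00123). In WT males Abca8b and Abcg2, a drug and urate exporter, fell (-0.63 and -0.79, adjusted p = 0.0287 and 0.0226). Of 5 canalicular pumps, 1 fell in KO females (Abcb11, the bile salt pump, -0.58, adjusted p = 0.0182) and 1 in WT males (Abcc2, a conjugate exporter, -0.44, adjusted p = 0.0442).

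In WT mice of both sexes in 1 fit, edgeR called 9 of 53 tested genes of these lists, against 10.3% of 13152 genes. Scd1, Srebf1 and Elovl5 fell (-3.38, -1.34 and -0.83), as did Apoa4, Apoc2 and Apoe (-2.27, -0.94 and -0.65), Abcg2 (-0.58) and Hdac3, a deacetylase of the corepressor complex (-0.29), while Cyp27a1 rose (0.73). In WT females and KO males edgeR called 0 genes of these lists, with 10 of 52 and 7 of 51 at an unadjusted p under 0.05 (13.6% and 6.43% of all genes). In KO females 6 of 9 Kupffer cell markers and 3 of 9 markers of scar-associated macrophages and monocytes rose from WDA to Res, and in WT males 0 of 9 and 3 of 8 did, beside 20.4% and 11% of all genes called in either direction. The part of these cells in the member results was not tested.

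The question for KO and HepKO mice was whether loss of Kdm5b shifted the same genes. In the KO against WT comparisons edgeR called 0 of 10 members in WDA females, WDA males, Res females and Res males, where 0 of 12397, 12419, 12577 and 12620 genes were called (0%). An unadjusted p under 0.05 was found for 0, 2, 2 and 0 members, against 3.11%, 7.71%, 19.2% and 1.45% of all genes. DESeq2 called 0, 1, 0 and 0, and limma on FPKM called none in the 4. What share of all genes DESeq2 or limma called is not given here, as the shares above are from edgeR. Groups did not overlap for 1, 4, 2 and 1 of the 10 members, against 8.81%, 16.3%, 26.2% and 4.64% of all genes. The log2 fold change was above 0 for 8, 8, 10 and 8 members, against 46.6%, 49.5%, 47.7% and 52.4% of all genes. Its median over the members was 0.04, 0.20, 0.17 and 0.09, beside medians of all genes between -0.02 and 0.01. The direction of the members as a set was not tested.

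Abca1 had the smallest unadjusted p-value of the members. In WDA males it was at 237, 255 and 238 CPM in KO mice and at 169, 145 and 144 CPM in WT mice, so the groups did not overlap. The log2 fold change was 0.69 (95% interval 0.39 to 0.98, adjusted p = 0.588) in edgeR, and DESeq2 gave an adjusted p of 0.000261. Without mouse 17 it was 0.64 (adjusted p = 0.286). In WDA females the same effect was 0.17 (-0.38 to 0.72), in Res females 0.28 (-0.10 to 0.65) and in Res males 0.13 (-0.32 to 0.58). Over both sexes it was 0.43 on WDA (adjusted p = 1) and 0.20 after resolution (adjusted p = 0.709).

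The KO effects on Abcg5 and Abcg8 had intervals that spanned 0 in all 4 comparisons. The log2 fold change of Abcg5 was 0.00 in WDA females (95% interval -0.77 to 0.77), 0.31 in WDA males (-0.47 to 1.09), 0.10 in Res females (-0.32 to 0.51) and 0.05 in Res males (-0.54 to 0.63). Those of Abcg8 were 0.02, 0.27, 0.24 and 0.01. Without mouse 7 the WDA female values were -0.24 and -0.28. Without mouse 17 the WDA male values were 0.61 and 0.59 (adjusted p = 0.34 and 0.303), and without mouse 5 the Res male values were -0.21 and -0.17. Intervals this wide hold effects of either sign.

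After resolution, Mylip was at 40.8, 29.6 and 41.1 CPM in KO females, against 29.7, 18.4 and 19.7 CPM in WT females, with mouse 3 of the KO group just under mouse 1 of the WT group. The log2 fold change was 0.68 (standard error 0.20, adjusted p = 0.151). Lpcat3 was at 161, 152 and 153 CPM against 136, 92.6 and 89.97 CPM without overlap (0.51, interval 0.13 to 0.89, adjusted p = 0.167). Neither was called. Without Res WT female mouse 1 both passed in edgeR (0.92 and 0.72, adjusted p = 0.0332 and 0.027). That mouse had the highest values of its group, so leaving it out widened both differences. The share of all genes called in that fit is not given here. In the same livers 8 hepatocyte markers summed to 147000 to 175201 CPM in KO females, to 159238 CPM in WT mouse 1, which had the highest Mylip and Lpcat3 of its group, and to 113897 and 100533 CPM in WT mice 12 and 13. The part of this difference in the values was not tested. In Res males Mylip was at 0.14 and Lpcat3 at -0.09 (0.22 and -0.19 without mouse 5). The KO effect on Lpcat3 in males minus that in females was -0.62 (standard error 0.21, adjusted p = 0.312 in edgeR's interaction test), which was not called. Over both sexes after resolution, Pltp (0.28) and Mylip (0.42) each had an adjusted p of 0.63.

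Over both sexes, 0 of 10 members were called for KO on WDA (0 of 12895 genes, 0%) and after resolution (0 of 13178 genes, 0%), with 1 and 2 members at an unadjusted p under 0.05 (2.92% and 7.85% of all genes). For the difference of the KO effect between stages, edgeR called 0 members (0 of 13519 genes, 0%, with 0 members at an unadjusted p under 0.05), and for that between sexes after resolution also 0 (0 of 13178 genes, 0%, with 1 member). DESeq2 and limma called 0 members in each of these 4 fits. With mice 7 and 17 left out together, a choice made after seeing the data, Abca1 on WDA was at 0.46 over both sexes (adjusted p = 0.448) and 0 members were called.

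The HepKO livers had the highest group mean of 6 members, Abca1, Abca3, Abcg5, Abcg8, Lpcat3 and Pltp. Abcg5 was at 539, 455 and 550.0 CPM in HepKO females, above WT (194 to 397 CPM) and KO females (218 to 409 CPM). Abcg8 was at 482, 417 and 502 CPM, and again above all 6 of those livers. Lpcat3 was at 259, 258 and 246 CPM, also above all of them. In FPKM, Lpcat3 of WT mouse 7 (126.6) lay within the HepKO range (119.4 to 126.9).

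Against WT, the log2 fold change was 0.69 for Abcg5 (standard error 0.28, adjusted p = 0.486), 0.59 for Abcg8 (standard error 0.33, adjusted p = 0.587), 0.43 for Lpcat3 (standard error 0.12, adjusted p = 0.327) and 0.44 for Mylip (standard error 0.13, adjusted p = 0.378). These 4 were the members whose groups did not overlap in CPM, against 18.6% of all genes, and edgeR called 0 of 10 members (0 of 12413 genes, 0%). For 3 members there was an unadjusted p under 0.05 in edgeR (10.1% of all genes). DESeq2 called 1, Lpcat3 (adjusted p = 0.000747), and limma on FPKM 0, and the shares of all genes they called are not given here. Without mouse 7 the effects were 0.43 for Abcg5 and 0.28 for Abcg8 (adjusted p = 0.0768 and 0.185), and Lpcat3 passed (0.44, adjusted p = 0.0411).

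Against KO, the log2 fold change was 0.67 for Abcg5 (standard error 0.20, adjusted p = 0.658), 0.56 for Abcg8 (standard error 0.16, adjusted p = 0.645) and 0.22 for Lpcat3 (standard error 0.09, adjusted p = 0.859). These 3 did not overlap, against 10.9% of all genes. None was called by edgeR, DESeq2 or limma, where edgeR called 0.0162% of 12351 genes and gave 3 members an unadjusted p under 0.05 (5.74% of all genes). Without KO mouse 1, whose Kdm5b lay in the range of the WT females, Abcg5 was at 0.45 and Abcg8 at 0.40. The comparisons against WT and against KO share the HepKO livers.

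Abca1 and Pltp were spread within the HepKO group, with mouse 13 at 487 and 116 CPM and mice 14 and 15 at 343 and 318 CPM and at 74.9 and 57.3 CPM. In mouse 13, 9 Kupffer cell markers summed to 801 CPM, the highest of the 27 livers. Without mouse 13 the log2 fold change against WT was 0.10 in place of 0.31 for Abca1 and -0.05 in place of 0.28 for Pltp. The part of Kupffer cells was not tested.

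Of the pathway lists, edgeR called 0 genes in the KO and HepKO comparisons with WT and in HepKO against KO. At an unadjusted p under 0.05 there were 0 of 52 list genes in WDA females, 6 of 51 in WDA males, 8 of 52 in Res females and 2 of 51 in Res males, against 3.11%, 7.71%, 19.2% and 1.45% of all genes. There were 3 of 52 for HepKO against WT and 6 of 52 for HepKO against KO, against 10.1% and 5.74% of all genes. Srebf1 had log2 fold changes for KO of 0.25, 0.84, 1.72 and 0.50 in WDA females, WDA males, Res females and Res males (adjusted p = 0.978, 0.588, 0.148 and 1), and of 0.67 for HepKO against WT (adjusted p = 0.311). Cyp7a1 was at -0.71, -1.59, -0.35 and -0.36 for KO (adjusted p = 0.978, 0.588, 0.75 and 1), and at -1.58 for HepKO against WT (adjusted p = 0.316). Rxra in Res females was at 0.48 (adjusted p = 0.177). In Res males Srebf1 was at 97.1 CPM in mouse 5, beside 29.97 and 18.3 CPM in the other KO males and 26.1 to 43.2 CPM in WT males. Cyp7a1 was lowest of its group in mouse 7 (34.7 CPM, against 86.9 and 131 CPM) and in mouse 17 (47.6 CPM, against 90.3 and 186 CPM).

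**Figure D4:**
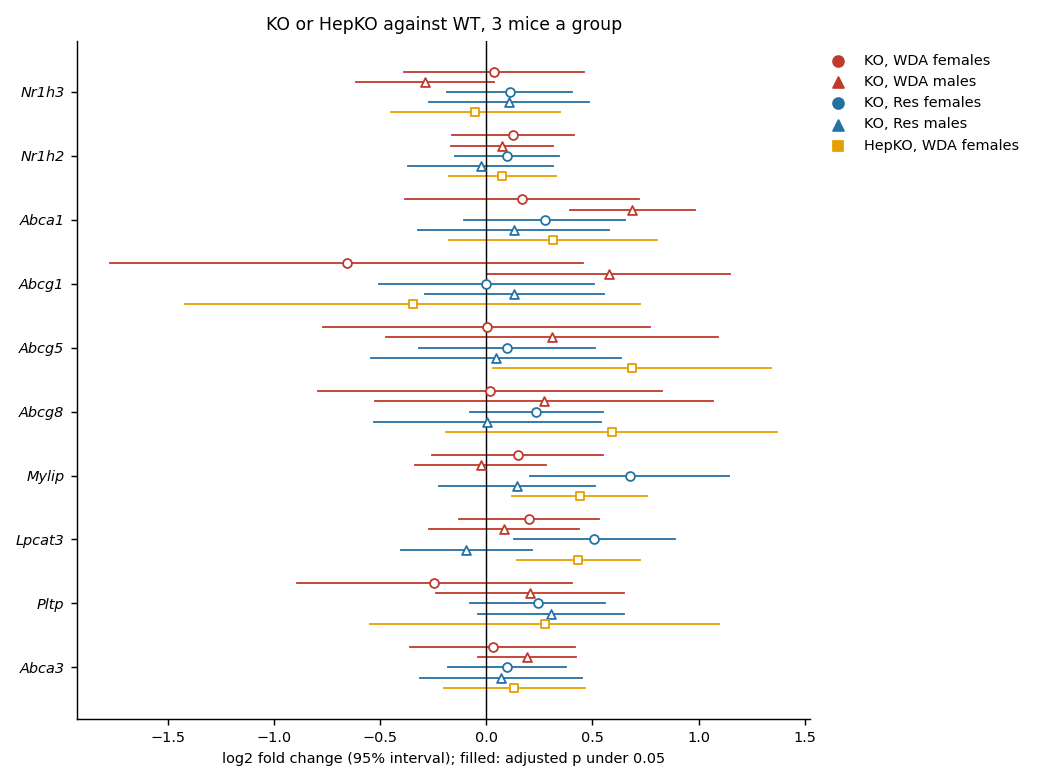
Log2 fold change of KO or HepKO against WT (horizontal axis) with its 95% interval for each member, 3 mice a group. No symbol is filled, since no member passed an adjusted p-value of 0.05; Abca1 in WDA males (0.69) and Abcg5 in HepKO females (0.69) lie farthest to the right along with Mylip in Res females (0.68).

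The order of the 9 groups by mean Abcg5 ran from HepKO females (515 ± 51.9 CPM, SD, n = 3) through WDA KO females (323 ± 97.0), WDA WT females (319 ± 110.1), WDA KO males (242 ± 102) and WDA WT males (197 ± 36.0) to Res KO females (105 ± 7.13), Res WT females (94.99 ± 22.7), Res KO males (68.3 ± 21.7) and Res WT males (66.7 ± 15.9). The ranges of neighbours in this order were separate only at 2 places, below the HepKO females and between WDA WT males and Res KO females.

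Abca1 was lower in males than in females at the WDA stage. WT males were at 144 to 169 CPM and WT females at 287 to 339 CPM, so that the log2 difference was -1.01 (standard error 0.14, adjusted p = 0.036 in edgeR). Abca1 was the 1 of 10 members called, against 0.851% of 12333 genes. The call was lost when any 1 of mice 5, 6, 19, 20 and 21 was left out (adjusted p = 0.105 to 0.282). Without mouse 7 it held (-0.92, adjusted p = 0.000834), and Abca3, Abcg5 and Abcg8 passed as well (-0.73, -0.96 and -1.26). What share of all genes passed without mouse 7 is not given here, and the 0.851% is for the fit with all mice. With all mice, Abca3 was at 65.1 to 70.3 CPM in males and 89.1 to 121 CPM in females (-0.63, adjusted p = 0.111). After resolution 0 of 10 members were called by edgeR, DESeq2 or limma, against 0.545% of 12661 genes, with 2 members at an unadjusted p under 0.05 (9.03% of all genes). Abca1 was then at 0.06 (95% interval -0.43 to 0.55). Of the pathway lists, Cyp7b1, an oxysterol hydroxylase, was higher in males at both stages (4.72 and 3.95, adjusted p = 0.036 and 0.000457), and Srebf1 and Tbl1xr1 were lower in males on WDA (-1.55 and -0.71, adjusted p = 0.0027 and 0.0488).

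Abcg1 and Pltp were high in mice 7 and 17, the livers with the highest sums of scar-associated macrophage and monocyte markers. The next highest sum was 351 CPM, in Res WT female mouse 13. That liver had 13.5 CPM of Abcg1, the highest of its group, and 46.3 CPM of Pltp, the lowest of its group. Mouse 7 had 35.2 CPM of Abcg1, where the other WDA WT females had 10.5 and 12.5 CPM. Mouse 17 had 29.6 CPM, where the other WDA KO males had 16.6 and 17.99 CPM. No other liver exceeded 17.99 CPM. Pltp was at 97.5 CPM in mouse 7 and 84.7 CPM in mouse 17, and only HepKO mouse 13 was higher than both. Abcg5 was the lowest of its group in mice 7 and 17. In Res WT female mouse 13 it was instead the highest of its group, at 118 CPM. In Res KO male mouse 5, with 306 CPM of these markers, Abcg5 was the highest of its group at 87.4 CPM. In Res KO male mouse 11, with 289 CPM of markers, it was the lowest at 44.7 CPM. In CPM, Nr1h3 was also the lowest of its group in mice 7 and 17, at 53.2 and 55.2 CPM. In FPKM it was not. There mouse 7 was at 47.1, between 46.2 and 51.8 in its group, and mouse 17 at 46.7, above 44.3 and 42.4 in its group. The order of Nr1h3 in these groups thus depended on the scaling.

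Leaving out mouse 7 moved the stage effect on Abcg1 in WT females from -0.86 to -0.10, and the KO effect in WDA females from -0.66 to 0.14. Leaving out mouse 17 moved the KO effect on Abcg1 in WDA males from 0.58 to 0.25 (adjusted p = 0.589). None of these values was called. The part of macrophages in them was not tested.

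**Figure D5:**
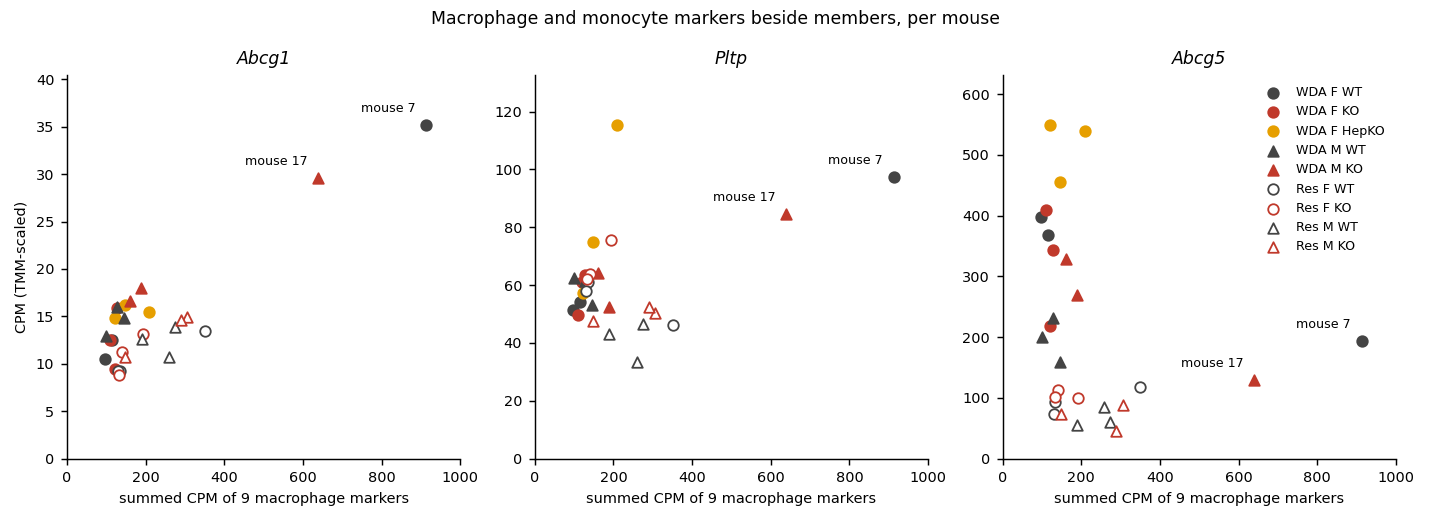
Abcg1, Pltp and Abcg5 in CPM (vertical axes) against the summed CPM of 9 markers of scar-associated macrophages and monocytes (horizontal axis) in 27 livers; symbols as in the plot of Abcg5 against Abcg8. Mouse 7 and mouse 17 lie to the right, at 913 and 639 CPM of markers, with 35.2 and 29.6 CPM of Abcg1.

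Genes among the most like 3 of the members across the 9 group means of log2 CPM, among 10004 genes, were listed as a description. For Abcg5 they were Adssl1 (Pearson's r = 0.988), Abcg8 (0.986), Bphl (0.983) and Asrgl1 (0.983). For Abca1 they were Sgsm2 (0.984), Abhd17c (0.981), Dusp22 (0.977), Slc39a4 (0.976) and Eepd1 (0.963). For Nr1h3, whose level hardly moved, they were Dcp2 (0.950), Puf60 (0.920), Txnl1 (0.918), Apof (0.907) and Bcar3 (0.904).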

How the data were processed

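RNA of 27 livers was sequenced at BGI on the BGISEQ platform, 1 mouse per library. Per the study's methods and the submitters' processing notes, HISAT placed the clean reads on the GRCm38.p6 genome and Bowtie2 placed them on reference genes. The counting tool, versions and strand setting are not given in the sources used here. The authors deposited 4 tables of 16588 to 16725 genes with estimated counts per gene, of which 7.34% to 8.09% per table were not whole, and FPKM values, scaled by the authors to gene length and library size. Columns of the authors' comparisons were not used.

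Counts were rounded and joined. Library totals were 14634602 to 19388251 (median 17944536). For each of 18 comparisons, edgeR 4.0.16 (R 4.3.3) was run on the libraries of that comparison, with filterByExpr (minimum count 10), TMM scaling, the quasi-likelihood test and Benjamini-Hochberg adjustment over all tested genes. The standard error is the log2 fold change divided by the square root of F. Sex was a covariate in fits over both sexes. The procedure was tested on simulated data. Alternatives were RLE scaling, library totals without scaling factors, DESeq2 1.42.0, other filters, a single spread from all 27 libraries, limma 3.58.1 on log2(FPKM + 0.5), and leaving out each mouse. The authors' methods name DESeq2.

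The members and lists were chosen with earlier results of these data known, so their shares beside all genes are a description. Named were all 10 members, list genes that passed the test, a few pathway genes with or without a call, Kdm5b, and the 5 genes most like Abcg5, Abca1 and Nr1h3. A few genes that this rule names are not reported here. Mouse numbers recur between experiments and were not taken to pair mice. Labels name separate mice, so p-values measure the spread between mice.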

Additional observations from a re-analysis of the deposited data

How the results depend on the processing

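Of 286 alternative counts of members called, 255 stayed within 1.5 times the main count and 31 moved. Of 2860 alternative values of single members, 2596 kept direction and call, 32 lost a call, 31 gained one, 201 changed sign without a call and 0 changed sign with one. With DESeq2, 4 members were called between stages in WT females, 1 in KO males, 1 for KO in WDA males, 1 for HepKO against WT, 1 for the stage difference between sexes and 2 between sexes on WDA. With a single spread from all 27 libraries, 4 were called between stages in WT females, 1 in WT males and 2 in KO males, 2 for KO in Res females and 2 between sexes on WDA. With library totals, 1 was called between stages in WT males and 2 between sexes on WDA, and limma on FPKM gave 1 and 2. The cause was not tested. Leaving out 1 mouse at a time, 0 to 2 members were called between stages in WT females, 2 to 5 in KO females, 1 to 4 in WT males, 3 to 4 in WT mice of both sexes, 0 to 2 for KO in Res females, 0 to 1 for HepKO against WT, 0 to 1 for the KO difference between sexes and 0 to 4 between sexes on WDA. It was 0 in all leave-outs of the other 10 comparisons. With a replicate block over mice 2 and 3 of the KO females, 4 members were called between stages, in place of 5. The shares of all genes called under these alternatives are not given here, so their member counts stand without a background. With 3 mice a group, the intervals are wide, and a missed call does not show that groups were alike.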
